A study of Mus musculus with 10 samples.

Results

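The genes of the prostaglandin and leukotriene pathway were measured by bulk RNA sequencing in 4T1 tumors, which grow from a mouse triple-negative breast carcinoma line, after treatment with the nanoplatform BC@Z-M under laser irradiation. Its members were the 10 genes whose symbols in the deposited table were Pla2g4a, Ptgs1, Ptgs2, Ptges, Ptges2, Hpgd, Ptger2, Ptger4, Alox5 and Alox5ap, out of 34449 genes in all. The BC@Z-M + L group (labelled therapy, 5 libraries) was set against the control group (5 libraries), all from subcutaneous tumors of female BALB/C mice given as 9 weeks old. BC@Z-M is a zinc imidazolate carrier loaded with BN-O, a photosensitizer probe switched on by hypoxia, and CA4P, a drug that disrupts tumor vessels, and it is wrapped in membrane of M1-polarized RAW264.7 macrophages. The control tumors are described only as tumors without BC@Z-M + L, and no source says that each library came from a mouse of its own, so p-values measure the spread between these libraries. The labels speak of triplicates although 5 libraries per group were deposited. Libraries are called by the group and the number 1 to 5 in their titles.

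Eicosanoids are lipid signals made from arachidonic acid, which the phospholipase encoded by Pla2g4a cuts out of membranes. The cyclooxygenases COX-1 (Ptgs1, expressed in most tissues) and COX-2 (Ptgs2, switched on by inflammatory signals) turn it into prostaglandin H2, from which synthases make prostaglandin E2, a signal for the receptors EP2 and EP4 that is known in tumors for damping T cells and shaping myeloid cells. In the other branch, the lipoxygenase Alox5 with its partner protein Alox5ap makes leukotrienes, which attract and activate leukocytes.

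No member passed the test of a difference between BC@Z-M + L and control tumors after adjustment over all genes. Levels are FPKM, in which fragments are scaled to the length of the transcript and to the total of the library, and 8 of the 10 members had a mean FPKM of at least 1 and entered limma, a linear model over all genes that borrows information on spread between genes. None of the 8 passed an adjusted p of 0.05, and 0 of 12802 genes (0%) did so in all. At an unadjusted p under 0.05 limma called 1 member, Ptges, against a background of 2.52% (323 of 12802 genes). On the estimated counts, edgeR's quasi-likelihood test called 0 of 10 members at an adjusted p under 0.05 (0% of 18668 genes) and DESeq2 called 0 of 10 (0.0227%, or 6 of 26426 genes), and each had 1 member, Ptges, under 0.05 before adjustment, as had 2.92% of all genes in edgeR and 3.26% in DESeq2. All 10 members overlapped between the groups, while 0.414% of genes (53 of 12802) did not. The median log2 fold change was -0.01 over the 8 members tested and -0.01 over all genes tested. A p above the threshold does not show that the groups were alike. In bulk tissue, fewer cells of a type and less RNA per cell cannot be told apart.

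Library totals of estimated counts ran between 53446143 and 77510631 in BC@Z-M + L tumors and between 53411182 and 65263003 in control tumors. BC@Z-M + L replicates 2 and 5 stood apart from the rest, with 58 and 57 genes at more than 2-fold above every other library, against 17 in control replicate 4 and at most 8 in the remaining libraries. Epithelial markers of the tumor cells (Krt8, Krt18, Krt19, Epcam, Cdh1) were all detected and summed to between 1511 and 2589 FPKM in BC@Z-M + L tumors and to between 1726 and 2186 FPKM in control tumors. There were 11 marker lists covering tumor, immune, vascular, stromal and skin cells, muscle, fat and blood. Of their genes that entered limma none passed after adjustment, as none of all 12802 genes did. Some listed genes were under the filter and were not tested by limma.

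By level per transcript length, the members ordered themselves as Ptgs2 (mean 34.3 FPKM over the 10 libraries), Ptges (27.1), Alox5ap (26.7), Ptgs1 (19.4), Pla2g4a (8.59), Ptges2 (3.12), Hpgd (1.43), Alox5 (1.23), Ptger4 (0.627) and Ptger2 (0.253). The top of this order was not resolved, since Ptgs2 exceeded Ptges in 6 of 10 libraries and Ptges exceeded Alox5ap in 5 of 10. Hpgd and Alox5 also changed places from library to library (Hpgd above in 5 of 10). Ptgs1 exceeded Pla2g4a, Pla2g4a exceeded Ptges2, and Ptger4 exceeded Ptger2 in 10 of 10. The mRNAs of both cyclooxygenases, the inducible prostaglandin E2 synthase and the leukotriene partner protein thus lay far above those of the EP2 and EP4 receptors per transcript length.

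**Figure D1:**
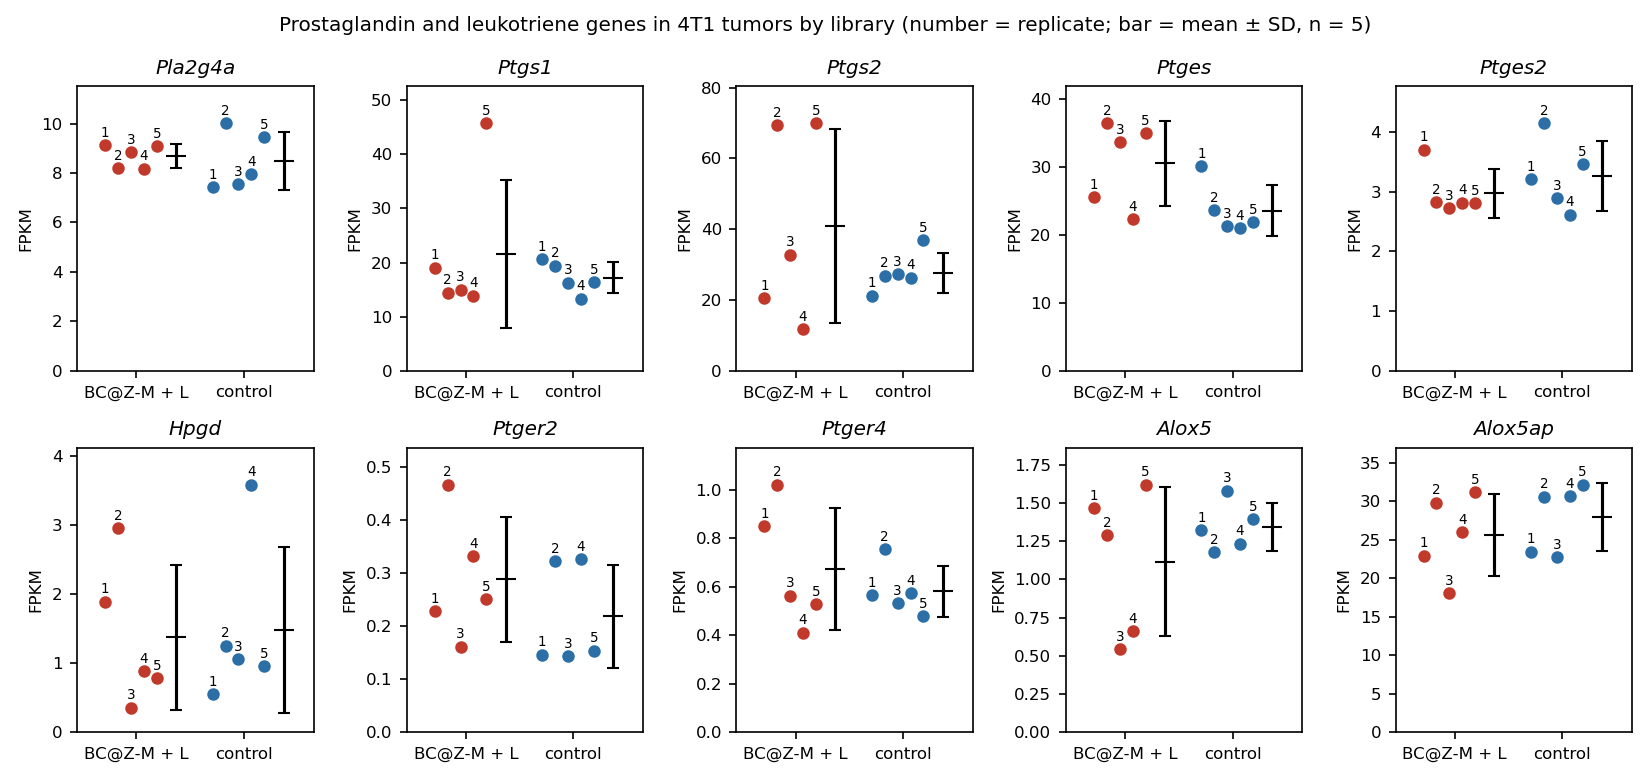
FPKM of the 10 pathway genes in each library, BC@Z-M + L (red, left) and control (blue, right), with replicate numbers beside the points and the mean ± SD of 5 libraries as a black bar. Ptgs2 spreads between 11.8 and 70.0 FPKM in BC@Z-M + L tumors and between 21.3 and 36.8 FPKM in control tumors, and 1 library (replicate 5, 45.7 FPKM) lies far above the rest for Ptgs1.

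The regulatory letters just upstream of the cyclooxygenase genes are shown because Ptgs2 was the member that varied most between libraries and Ptgs1 is its constitutive counterpart. The windows are RefSeq sequence of build GRCm38.p6, on the plus strand: 250 bases before the start of Ptgs2 (chr1:150099781-150100030), 30 bases just after it (chr1:150100035-150100064), and 250 bases before the start of Ptgs1 (chr2:36230176-36230425). Capitals mark exact matches to TTGCGCAA (a palindrome bound by C/EBP factors), CGTCA (a core of the cyclic AMP response element) and CACGTG (an E-box), each searched on both strands together with TATAAA.
Ptgs2 upstream: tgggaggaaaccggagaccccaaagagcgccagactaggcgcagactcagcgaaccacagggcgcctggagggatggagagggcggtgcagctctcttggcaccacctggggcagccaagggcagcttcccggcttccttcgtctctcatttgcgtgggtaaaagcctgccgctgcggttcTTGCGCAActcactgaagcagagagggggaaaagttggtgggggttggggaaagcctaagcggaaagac
Ptgs2 site: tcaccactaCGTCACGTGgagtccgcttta
Ptgs1 upstream: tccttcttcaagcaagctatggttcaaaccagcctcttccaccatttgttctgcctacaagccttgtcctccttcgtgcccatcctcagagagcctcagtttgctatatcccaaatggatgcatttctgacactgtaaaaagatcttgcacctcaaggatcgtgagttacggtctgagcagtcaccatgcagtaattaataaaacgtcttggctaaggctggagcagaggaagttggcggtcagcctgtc
In Ptgs2 the TTGCGCAA match begins 69 bases before the start, and the CGTCA and CACGTG matches, which share 2 bases, begin at bases 14 and 17. Over the full windows of 300 bases (250 before and 50 after the start), TTGCGCAA occurred in 60 of 32851 windows (0.183%), CGTCA in 20.8%, CACGTG in 7.15% and TATAAA in 13.6%. RefSeq windows were found for 9 of the 10 members, of which TTGCGCAA and CGTCA each occurred in 1 (Ptgs2), CACGTG in 2 (Ptgs2 and Ptges2) and TATAAA in 2 (Hpgd and a second start of Pla2g4a). The Ptgs1 window held none of the 4 motifs, which says only that these letters are not in it.

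Pla2g4a (chr1:149829618-149961290, GRCm38), the cytosolic phospholipase at the head of the pathway, was the steadiest member in treated tumors. It had 9.13, 8.21, 8.85, 8.17 and 9.10 FPKM in BC@Z-M + L replicates 1 to 5 and 7.44, 10.0, 7.55, 7.95 and 9.44 FPKM in control replicates 1 to 5. The BC@Z-M + L values all lay inside the control range. The limma log2 fold change was 0.04 (SE 0.10, adjusted p = 0.997). Its standard deviation on the log2(FPKM + 1) scale was 0.07 in BC@Z-M + L tumors, at the 3.66th percentile of all genes tested, and 0.18 in control tumors, at the 42.6th percentile.

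Ptgs2 (chr1:150100031-150108227), which encodes COX-2, had 20.5, 69.4, 32.8, 11.8 and 70.0 FPKM in BC@Z-M + L replicates 1 to 5 and 21.3, 26.9, 27.3, 26.3 and 36.8 FPKM in control replicates 1 to 5. BC@Z-M + L replicates 2 and 5 lay above every control library, and replicates 1 and 4 lay below every control library. The group means were 40.9 ± 27.3 FPKM in BC@Z-M + L tumors and 27.7 ± 5.65 FPKM in control tumors (SD, n = 5 each), with a limma log2 fold change of 0.27 (SE 0.42, adjusted p = 0.997). On the estimated counts the edgeR log2 fold change was larger, at 0.61 (SE 0.43, adjusted p = 0.985). The sign of the difference rested on the 2 libraries that stood apart: without BC@Z-M + L replicate 5 the log2 fold change was 0.01, without replicate 4 it was 0.63, and with replicates 2 and 5 both left out it was -0.43 (adjusted p = 0.999 in limma). The spread was the distinctive measurement, with a standard deviation of log2(FPKM + 1) of 1.08 in BC@Z-M + L tumors, at the 98.9th percentile of all genes tested, and of 0.27 in control tumors, at the 73.4th percentile. The median gene had a standard deviation of 0.21 in BC@Z-M + L tumors and 0.19 in control tumors. The difference in spread was not tested.

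Ptgs1 (chr2:36230426-36252272), which encodes COX-1, had 19.1, 14.5, 15.0, 13.9 and 45.7 FPKM in BC@Z-M + L replicates 1 to 5 and 20.6, 19.5, 16.3, 13.3 and 16.4 FPKM in control replicates 1 to 5. A single library, BC@Z-M + L replicate 5, was above the control range, and the others lay inside it. The limma log2 fold change was 0.17 (SE 0.28, adjusted p = 0.997) and edgeR's was 0.37 (SE 0.34, adjusted p = 0.985), and without replicate 5 the limma value became -0.13. The same library had the highest sum of the epithelial markers, 2589 FPKM, and the part of this in the Ptgs1 value was not tested. The log2 ratio of Ptgs2 to Ptgs1 within a library, which does not depend on library scaling, was 0.11, 2.25, 1.12, -0.23 and 0.61 in BC@Z-M + L replicates 1 to 5 and 0.05, 0.46, 0.74, 0.98 and 1.16 in control replicates 1 to 5. The group difference was 0.10 (two-sided exact permutation test, p = 0.849, adjusted p = 0.849 over 4 ratios, n = 5 each), and BC@Z-M + L replicate 2 held the highest ratio and replicate 4 the lowest.

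**Figure D2:**
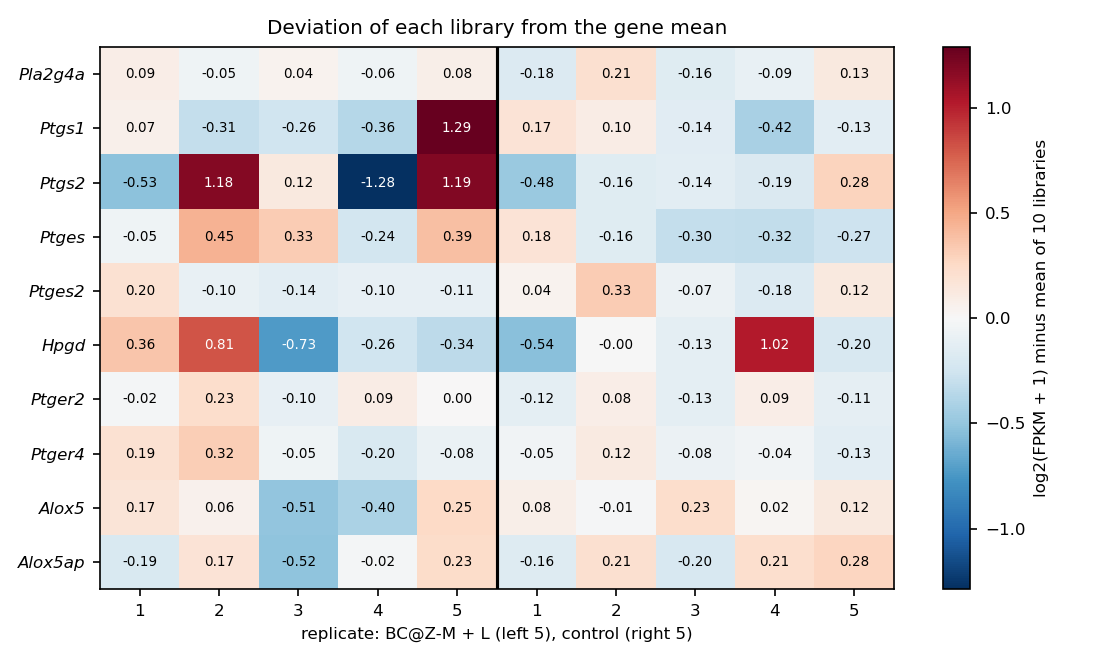
Deviation of log2(FPKM + 1) from the mean of the 10 libraries for each gene (rows), in BC@Z-M + L replicates (left 5 columns) and control replicates (right 5 columns), with the value printed in each cell. The strongest colours are Ptgs2 in BC@Z-M + L replicates 2 and 5 (above the mean) and 4 (below it), Ptgs1 in BC@Z-M + L replicate 5, and Hpgd in control replicate 4 and BC@Z-M + L replicate 2.

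Ptges (chr2:30889471-30929863), the inducible synthase that works together with COX-2 to make prostaglandin E2, came closest to a difference. It had 25.5, 36.5, 33.6, 22.3 and 34.9 FPKM in BC@Z-M + L replicates 1 to 5 and 30.1, 23.7, 21.3, 21.03 and 21.9 FPKM in control replicates 1 to 5. Every control library was exceeded by BC@Z-M + L replicates 2, 3 and 5, and the others fell inside the control range. The means were 30.6 ± 6.26 FPKM in BC@Z-M + L tumors and 23.6 ± 3.78 FPKM in control tumors (SD, n = 5 each). The limma log2 fold change was 0.35 (SE 0.15, p = 0.0423, adjusted p = 0.997), a difference that failed the correction, and the two-sided exact permutation test gave p = 0.0635, where 0.00794 is the smallest value that 5 against 5 libraries allow. Leaving out 1 library at a time kept the log2 fold change between 0.28 and 0.45, and it was 0.19 when BC@Z-M + L replicates 2 and 5 were both left out. The summed level of the mast cell markers (Cpa3, Cma1, Mcpt4, Tpsb2, Ms4a2, all detected) was 6.75, 35.1, 16.5, 2.77 and 28.4 FPKM in BC@Z-M + L replicates 1 to 5 and 29.0, 6.08, 11.9, 6.23 and 6.71 FPKM in control replicates 1 to 5, so that the libraries with the most Ptges in each group were also those with the most mast cell marker RNA. The mean log2 level of this list and Ptges had Pearson's r of 0.84 (adjusted p = 0.172 over 110 pairs, permutation test) and Spearman's rho of 0.72 (adjusted p = 0.486), and r was 0.78 without BC@Z-M + L replicate 2 and control replicate 1. T cell markers (Cd3d, Cd3e, Cd3g, Trac, Cd2, all detected) also had a positive r with Ptges over the 10 libraries. All 5 were higher on the mean in BC@Z-M + L tumors. They summed to between 4.06 and 14.0 FPKM there, against 2.97 to 5.22 FPKM in control tumors. Of these 5 genes only 2 entered limma, and neither passed after adjustment. In edgeR the 5 had log2 fold changes of 0.93 (Trac) to 1.26 (Cd3e). Their edgeR p ran from 0.0143 to 0.0381 before adjustment (under 0.05 in 2.92% of all genes) and was 0.985 after it. For this list r with Ptges was 0.77 (adjusted p = 0.172, permutation test) and rho was 0.73 (adjusted p = 0.486), with r = 0.45 without BC@Z-M + L replicates 2 and 5. Within groups r of the T cell list with Ptges was 0.85 in BC@Z-M + L tumors and -0.19 in control tumors. The part of the mast cell and T cell markers in the Ptges difference was not tested.

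Ptges2 (chr2:32395896-32405772), the membrane-associated synthase found in most tissues, ran lower and without a group pattern. It had 3.70, 2.82, 2.73, 2.82 and 2.81 FPKM in BC@Z-M + L replicates 1 to 5 and 3.21, 4.15, 2.90, 2.62 and 3.46 FPKM in control replicates 1 to 5. All treated libraries lay inside the control range. The limma log2 fold change was -0.10 (SE 0.11, adjusted p = 0.997).

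Hpgd (chr8:56294585-56321043) encodes the dehydrogenase that starts the inactivation of prostaglandins. It had 1.89, 2.96, 0.359, 0.889 and 0.782 FPKM in BC@Z-M + L replicates 1 to 5 and 0.555, 1.26, 1.06, 3.59 and 0.962 FPKM in control replicates 1 to 5, and its counts were as low as 36 in a library. Each group had a high library, and the groups overlapped almost fully. The limma log2 fold change was -0.06 (SE 0.33, adjusted p = 0.9999), with -0.27 without BC@Z-M + L replicate 2 and 0.19 without control replicate 4. Hpgd was as variable in BC@Z-M + L tumors (standard deviation of log2(FPKM + 1) 0.61, 94.7th percentile) as in control tumors (0.59, 97.2nd percentile). Markers of other tissues were also high in these libraries. Control replicate 4 had 195.7 FPKM of the adipocyte markers (Adipoq, Plin1, Lep, Cfd, Cidec) against 0.956 to 6.72 FPKM in the other controls and 669.9 FPKM of the erythroid markers (Hbb-bs, Hbb-bt, Hba-a1, Hba-a2, Alas2) against 165.2 to 293.2 FPKM, and BC@Z-M + L replicate 2 had 274.6 FPKM of the keratinocyte markers (Krt5, Krt14, Krt1, Krt10, Lor) against 3.34 to 17.0 FPKM in the other treated tumors. Over all libraries the adipocyte sums were 2.54 to 38.9 FPKM in BC@Z-M + L tumors and 0.956 to 195.7 FPKM in control tumors, and the keratinocyte sums were 3.34 to 274.6 FPKM in BC@Z-M + L tumors and 4.11 to 48.3 FPKM in control tumors, with every marker detected. These markers did not follow Hpgd throughout. BC@Z-M + L replicate 4 had the most adipocyte marker RNA of the treated tumors at 0.889 FPKM of Hpgd. Control replicate 1 had the most keratinocyte marker RNA of the controls at the lowest control level of Hpgd. The erythroid sums were 109.9 to 256.2 FPKM in BC@Z-M + L tumors, lowest in replicate 2. Within groups r of the erythroid list with Hpgd was -0.63 in BC@Z-M + L tumors and 0.998 in control tumors. The part of these markers in the Hpgd values was not tested. The log2 ratio of Ptges to Hpgd, synthesis against breakdown, averaged 4.66 ± 1.11 in BC@Z-M + L tumors and 4.15 ± 1.07 in control tumors (SD, n = 5 each, two-sided exact permutation test, p = 0.484, adjusted p = 0.804).

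Ptger2 (chr14:44988195-45003820) and Ptger4 (chr15:5206661-5244187) encode the prostaglandin E2 receptors EP2 and EP4, which raise cyclic AMP in the receiving cell. Both were under the limma filter, with counts between 47 and 170 for Ptger2 and between 191 and 478 for Ptger4. Ptger2 had 0.228, 0.466, 0.162, 0.332 and 0.251 FPKM in BC@Z-M + L replicates 1 to 5 and 0.146, 0.322, 0.144, 0.326 and 0.154 FPKM in control replicates 1 to 5. The edgeR log2 fold change of Ptger2 was 0.41 (SE 0.37, adjusted p = 0.985), and the groups overlapped. Ptger4 had 0.849, 1.02, 0.563, 0.411 and 0.529 FPKM in BC@Z-M + L replicates 1 to 5 and 0.566, 0.756, 0.531, 0.573 and 0.477 FPKM in control replicates 1 to 5. BC@Z-M + L replicates 1 and 2 were above every control library and replicate 4 was below, and edgeR gave a log2 fold change of 0.23 (SE 0.26, adjusted p = 0.985). On the log2(FPKM + 1) scale, which understates changes of low genes, the differences were 0.08 for Ptger2 (two-sided exact permutation test, p = 0.278) and 0.07 for Ptger4 (p = 0.516, same exact test). The balance of the receptors, the log2 ratio of Ptger4 to Ptger2, averaged 0.99 ± 0.50 in BC@Z-M + L tumors and 1.13 ± 0.31 in control tumors (SD, n = 5 each, exact permutation test, p = 0.603, adjusted p = 0.804).

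Alox5 (chr6:116410077-116461178), the lipoxygenase that opens the leukotriene branch, had 1.47, 1.29, 0.542, 0.663 and 1.62 FPKM in BC@Z-M + L replicates 1 to 5 and 1.32, 1.18, 1.58, 1.23 and 1.39 FPKM in control replicates 1 to 5. BC@Z-M + L replicates 3 and 4 lay under every control library and replicate 5 lay just above all of them, while the controls were tightly grouped. The standard deviation of log2(FPKM + 1) was 0.35 in BC@Z-M + L tumors (percentile 80.0) and 0.09 in control tumors (percentile 9.81), a difference in spread that was not tested. The limma log2 fold change was -0.18 (SE 0.16, adjusted p = 0.997). Neutrophils and macrophages are known sources of Alox5, and the summed neutrophil markers (S100a8, S100a9, Csf3r, Cxcr2, Retnlg, Ly6g, all detected) were 349.9, 846.9, 356.2, 328.6 and 1058 FPKM in BC@Z-M + L replicates 1 to 5 and 436.2, 898.1, 712.1, 728.6 and 681.7 FPKM in control replicates 1 to 5. Low in both were thus BC@Z-M + L replicates 3 and 4, while replicate 1 was low in the neutrophil markers alone. The macrophage markers (Adgre1, Csf1r, Cd68, C1qa, C1qb, Mrc1, all detected) summed to 361.3, 362.2, 300.1, 291.0 and 355.1 FPKM in BC@Z-M + L replicates 1 to 5 and to 365.6, 503.5, 252.2, 257.5 and 303.9 FPKM in control replicates 1 to 5. In treated tumors they were lowest in replicates 3 and 4, as Alox5 was, but over all 10 libraries the list and Alox5 had r = 0.42 (adjusted p = 0.781, permutation test) and rho = 0.15 (adjusted p = 0.961), while for the neutrophil list r was 0.64 (adjusted p = 0.366) and rho was 0.49 (adjusted p = 0.784). The part of the neutrophil and macrophage markers in the Alox5 values was not tested.

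Alox5ap (chr5:149264767-149288153), whose protein hands arachidonic acid to the lipoxygenase, was far more abundant per transcript length than Alox5. It had 22.9, 29.8, 18.1, 25.9 and 31.2 FPKM in BC@Z-M + L replicates 1 to 5 and 23.4, 30.6, 22.8, 30.7 and 32.1 FPKM in control replicates 1 to 5. Only BC@Z-M + L replicate 3 lay outside the control range, and the limma log2 fold change was -0.13 (SE 0.16, adjusted p = 0.997). The log2 ratio of Alox5 to Ptgs2, the leukotriene branch against the inducible prostaglandin branch, was -3.72, -5.64, -5.68, -3.96 and -5.35 in BC@Z-M + L replicates 1 to 5 and -3.91, -4.40, -4.03, -4.31 and -4.63 in control replicates 1 to 5. Below every control library were BC@Z-M + L replicates 2, 3 and 5, and replicate 1 was above. The group difference was -0.62, the largest of the 4 ratios, and did not exceed the spread (two-sided exact permutation test, p = 0.183, adjusted p = 0.730, n = 5 each).

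**Figure D3:**
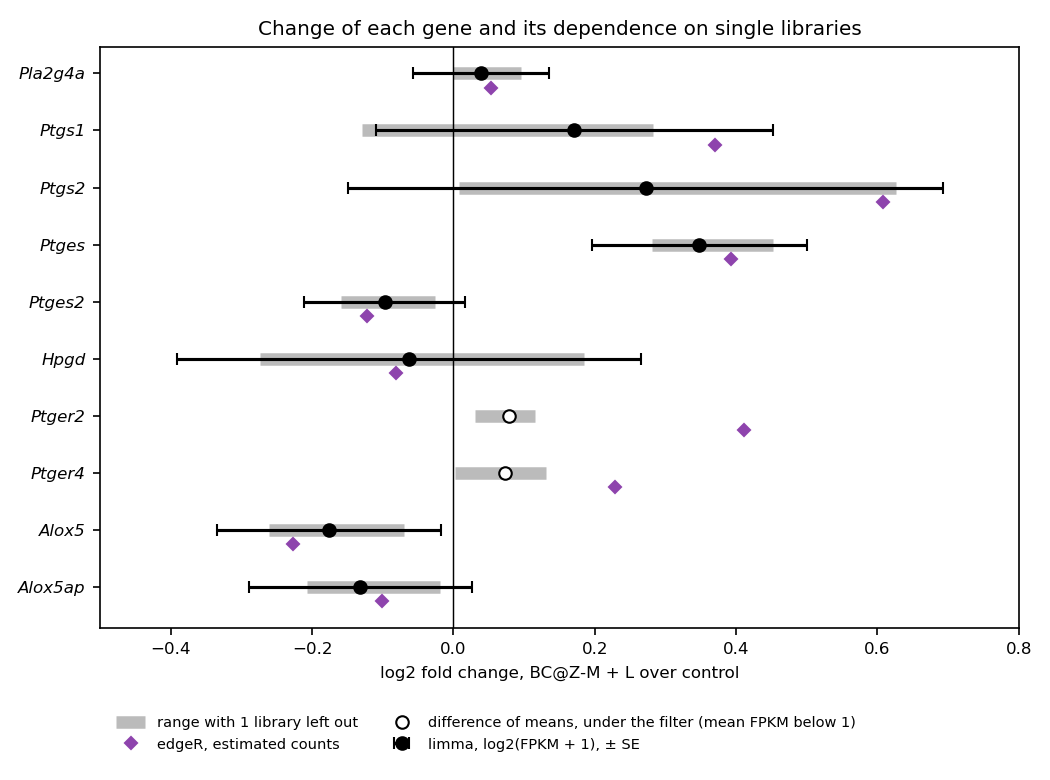
Log2 fold change of BC@Z-M + L over control for each gene, as limma on log2(FPKM + 1) with its SE (filled circles), as the difference of means for the genes under the filter (open circles) and as edgeR on estimated counts (diamonds), with grey bands for the range when 1 library at a time is left out. Ptges at 0.35 keeps a band of 0.28 to 0.45, while the bands of Ptgs1 and Hpgd cross 0 and that of Ptgs2 begins at 0.01.

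Ptgs2 went with Il1b across the libraries. Il1b encodes the inflammatory cytokine interleukin-1 beta, a classical inducer of COX-2, and was 1 of 8 genes listed as regulators of Ptgs2 RNA (Il1b, Tnf, Nfkb1, Rela, Cebpb, Creb1, Zfp36, Elavl1), whose correlations with Ptgs2 were computed after the values had been seen. Il1b had 41.6, 164.2, 62.1, 10.7 and 105.2 FPKM in BC@Z-M + L replicates 1 to 5 and 29.6, 66.6, 65.5, 36.0 and 55.7 FPKM in control replicates 1 to 5. Its highest and lowest libraries were those of Ptgs2, namely BC@Z-M + L replicates 2, 5 and 4. Over the 10 libraries Pearson's r was 0.92 (adjusted p = 0.0022 over 8 pairs, permutation test) and Spearman's rho was 0.83 (adjusted p = 0.0403). The relation held at r = 0.82 without BC@Z-M + L replicates 4 and 2, the libraries farthest from the median of Il1b, and at 0.93 on deviations from the group means. Within groups r was 0.96 in BC@Z-M + L tumors and weaker, at 0.59, in control tumors. Il1b itself had a limma log2 fold change of 0.19 (SE 0.58, adjusted p = 0.9999). Zfp36, which encodes a protein that speeds the decay of inflammatory mRNAs, gave r = 0.76 (adjusted p = 0.0457, permutation test) and rho = 0.67 (adjusted p = 0.156). Without BC@Z-M + L replicates 2 and 5, the libraries farthest from the Zfp36 median, r was 0.17, so this relation rested on those libraries. The libraries left out were not the same for Il1b and Zfp36, so the 2 reduced values of r are not on like terms. The other 6 genes gave r between -0.39 (Elavl1) and 0.64 (Cebpb) and did not pass.

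No marker list had a relation with Ptgs2 that passed the adjustment. The largest values of r were 0.75 for the T cell list (adjusted p = 0.289 over 110 pairs, permutation test; rho = 0.41, adjusted p = 0.829), 0.70 for the mast cell list (adjusted p = 0.314; rho = 0.54, adjusted p = 0.743) and 0.69 for the neutrophil list (adjusted p = 0.314; rho = 0.65, adjusted p = 0.600). Without the 2 libraries farthest from each list's median, r with Ptgs2 was 0.04 for T cells, 0.85 for mast cells and 0.83 for neutrophils. Within BC@Z-M + L tumors r was 0.92 for T cells, 0.99 for mast cells and 0.87 for neutrophils. In control tumors it was -0.14, -0.70 and 0.77 in the same order. Of the 110 pairs of a marker list and a member, 0 passed the adjustment and 13 had an unadjusted p under 0.05 for r, among them the neutrophil list with Alox5ap (r = 0.74, adjusted p = 0.289, permutation test) and the endothelial list with Ptger4 (r = 0.84, adjusted p = 0.172), where r was 0.60 without BC@Z-M + L replicates 2 and 4. The part of these cell types in the relation of Ptgs2 and Il1b was not tested. Among the 45 pairs of members, 0 passed and 2 had an unadjusted p under 0.05. These were Ptger2 with Hpgd (r = 0.69, adjusted p = 0.859, permutation test) and Ptgs2 with Ptges (r = 0.64, adjusted p = 0.859), of which the second was 0.12 without BC@Z-M + L replicates 2 and 5. Ptgs2 and Ptges were thus both high in those libraries. How often other genes reach an unadjusted p under 0.05 in such pairs was not computed, for the 45 or the 110.

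**Figure D4:**
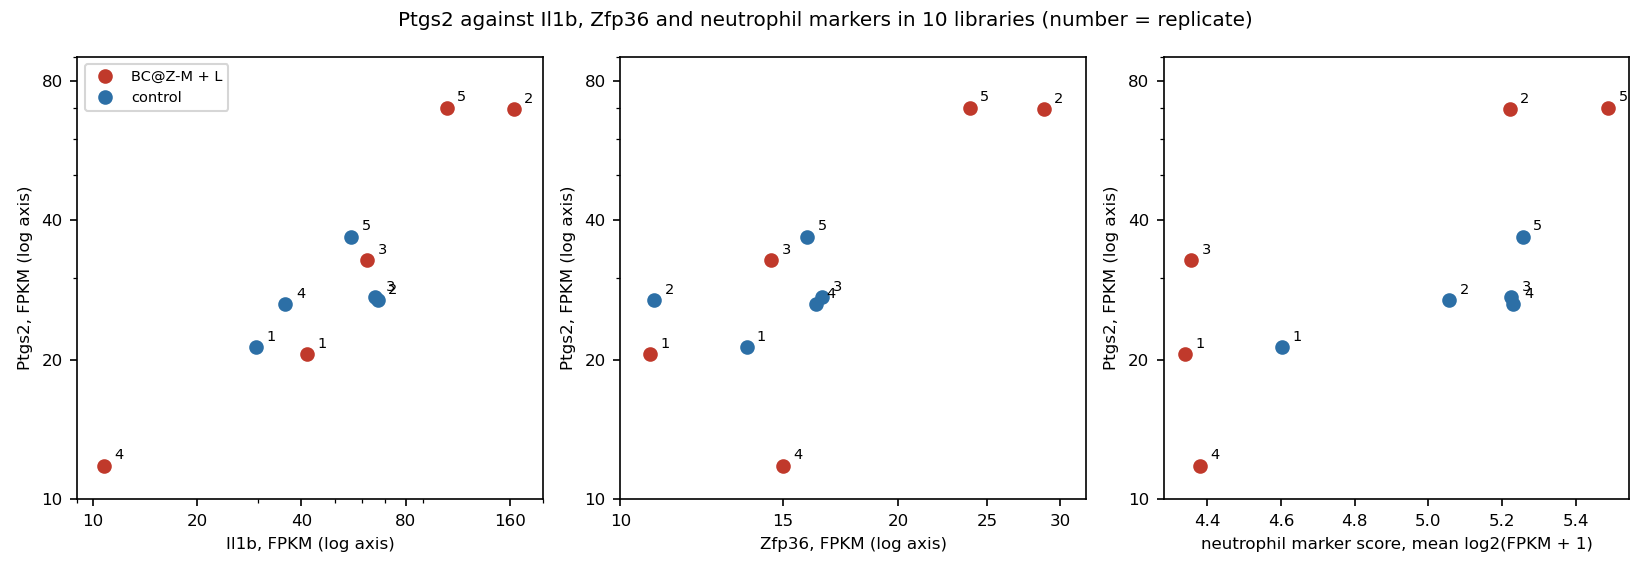
Ptgs2 FPKM (log axis) in the 10 libraries against Il1b FPKM and Zfp36 FPKM (log axes) and against the mean log2(FPKM + 1) of 6 neutrophil markers, with BC@Z-M + L in red, control in blue and replicate numbers beside the points. For Il1b r was 0.92 over the 10 libraries, 0.96 in BC@Z-M + L tumors and 0.59 in control tumors, while the relation with Zfp36 rests on BC@Z-M + L replicates 2 and 5.

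For the 3 members with the largest standard deviation over the libraries, the genes with the most similar pattern were sought by the mean absolute difference of deviations of log2(FPKM + 1) over the 10 libraries. Nearest to Ptgs2 were Mmp12 (a macrophage elastase, 0.21), Osm (the cytokine oncostatin M, 0.22) and Lilrb4b (a leukocyte receptor, 0.24), where the median gene was at 0.60. Mmp12 had 9.53, 29.5, 14.0, 4.05 and 30.2 FPKM in BC@Z-M + L replicates 1 to 5 and 8.60, 21.9, 10.7, 8.62 and 11.7 FPKM in control replicates 1 to 5, high and low in the same treated libraries as Ptgs2. Nearest to Hpgd were Mgll (monoacylglycerol lipase, 0.21), Nnmt (nicotinamide N-methyltransferase, 0.23) and Efs (0.24), with a median gene at 0.48. Mgll was highest in BC@Z-M + L replicate 2 (5.77 FPKM) and control replicate 4 (4.65 FPKM), the high libraries of Hpgd. Nearest to Ptgs1 were Adam10 (a protease that sheds surface proteins, 0.12), Phyh (a peroxisomal hydroxylase, 0.12) and Hcfc1r1 (0.14), with a median gene at 0.38, and each was highest in BC@Z-M + L replicate 5.

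Beyond the members, 61 genes were listed by role, of which 59 were found by symbol and 33 were tested. The list held 8 regulators of Ptgs2 RNA, all tested, which are not themselves genes of the pathway. None passed limma at an adjusted p of 0.05 or at an unadjusted p under 0.05, and none of the 59 had groups that did not overlap. On the estimated counts 0 genes passed after adjustment. Before it edgeR had 3 of 50 under 0.05 (2.92% of all genes) and DESeq2 had 4 of 54 (3.26% of all genes). On the mean 22 were higher and 11 lower in BC@Z-M + L tumors, and the regulators gave 7 of the higher and 1 of the lower. The median log2 fold change of the 33 was 0.06 beside -0.01 for all genes tested. Among phospholipases (4 tested), Pla2g7, which encodes the plasma enzyme that cleaves platelet-activating factor, had 57.0 ± 13.9 FPKM in BC@Z-M + L tumors and 43.5 ± 7.57 FPKM in control tumors (SD, n = 5 each), a log2 fold change of 0.36 (SE 0.18, adjusted p = 0.997 in limma). Of its treated libraries, replicates 1, 2 and 5 were above every control library.

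Of the genes under the limma filter, 2 were called before adjustment by both count tests and are named after their values were seen. Cysltr2, a receptor for cysteinyl leukotrienes, had 0.230, 0.516, 0.400, 0.284 and 0.437 FPKM in BC@Z-M + L replicates 1 to 5 and 0.114, 0.304, 0.182, 0.0875 and 0.0865 FPKM in control replicates 1 to 5. Its edgeR log2 fold change was 1.24 (SE 0.41, adjusted p = 0.985), and the two-sided exact permutation test on log2(FPKM + 1) gave p = 0.0238 before any correction. Pla2g4b, another cytosolic phospholipase, had 0.202, 0.178, 0.223, 0.238 and 0.149 FPKM in BC@Z-M + L replicates 1 to 5 and 0.0788, 0.0633, 0.0801, 0.155 and 0.144 FPKM in control replicates 1 to 5. Its edgeR log2 fold change was 0.91 (SE 0.30, adjusted p = 0.985), with p = 0.0159 in the same exact permutation test. Both overlapped between the groups and failed the correction. Ptgr2, listed under transport and breakdown, was lower on the mean in BC@Z-M + L tumors. Before adjustment it was called by edgeR but not by DESeq2. It had 8.61 ± 0.616 FPKM in BC@Z-M + L tumors and 10.1 ± 1.16 FPKM in control tumors (SD, n = 5 each). Its log2 fold change was -0.20 in limma (SE 0.09, adjusted p = 0.997) and -0.21 in edgeR (SE 0.09, adjusted p = 0.985). The two-sided exact permutation test gave p = 0.0635, and the groups overlapped.

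Among the other prostanoid synthases (7 tested, 5 higher and 2 lower on the mean), Ptges3, a cochaperone with synthase activity, had a log2 fold change of -0.12 (SE 0.12), and Prxl2b, a prostamide and prostaglandin F synthase, had -0.28 (SE 0.21). None of the other 7 prostanoid receptors reached a mean of 1 FPKM, and the highest, the prostacyclin receptor Ptgir, had 0.891 ± 0.345 FPKM in BC@Z-M + L tumors and 0.780 ± 0.207 FPKM in control tumors (SD, n = 5 each). The prostaglandin receptors of these tumors were therefore all of low abundance in bulk RNA. Slco2a1, the carrier that takes prostaglandins into cells for breakdown, had 29.9 ± 7.17 FPKM in BC@Z-M + L tumors and 25.2 ± 4.86 FPKM in control tumors, a log2 fold change of 0.23 (SE 0.17).

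In the leukotriene branch (6 tested, 4 higher and 2 lower on the mean), Mgst3, a microsomal glutathione transferase, had a log2 fold change of -0.26 (SE 0.16). Dpep1, a dipeptidase that trims leukotriene D4, had 0.894 ± 0.273 FPKM in BC@Z-M + L tumors and 1.44 ± 0.534 FPKM in control tumors (SD, n = 5 each), with -0.35 (SE 0.18) in limma and -0.68 (SE 0.32, adjusted p = 0.985) in edgeR. Of the receptors, the leukotriene B4 receptor Ltb4r1 had 0.16 (SE 0.21) and Fpr2, which binds formyl peptides and lipoxin, had -0.01 (SE 0.27), and both values changed sign with the scaling or weighting. Of the regulators of Ptgs2 RNA, Cebpb was the most abundant at 142.8 ± 38.6 FPKM in BC@Z-M + L tumors and 130.0 ± 24.8 FPKM in control tumors (SD, n = 5 each), with a log2 fold change of 0.11 (SE 0.19), and Zfp36 had 0.26 (SE 0.23), which changed sign with array weights, as Cebpb did without BC@Z-M + L replicate 2.

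**Figure D5:**
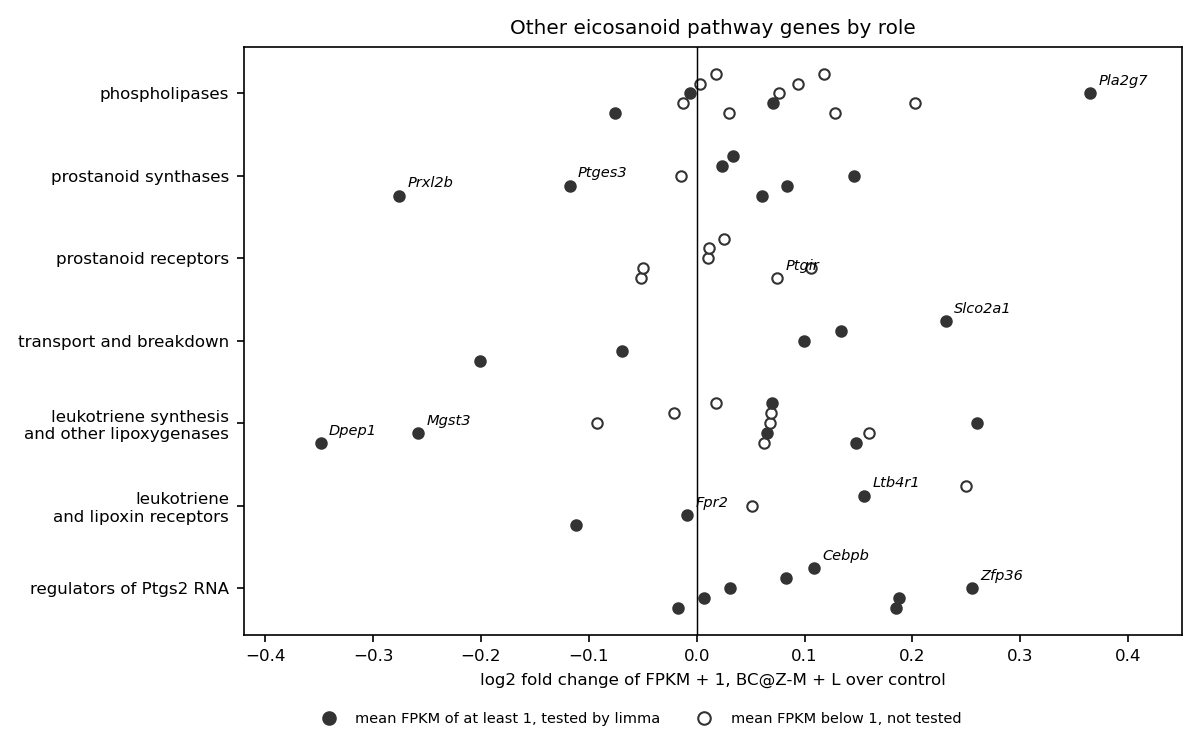
Log2 fold change of FPKM + 1, BC@Z-M + L over control, for 59 further genes grouped by role. They are eicosanoid pathway genes and 8 regulators of Ptgs2 RNA. Points are filled where the mean FPKM was at least 1 and limma was run, and open where it was not. The values lie between -0.35 (Dpep1) and 0.36 (Pla2g7), and no gene passed.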

How the data were processed

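10 libraries of 4T1 tumor RNA (5 BC@Z-M + L, 5 control) were analysed. The authors deposited 1 table with FPKM and estimated counts for 34449 genes, made by aligning reads with HISAT2 and quantifying with StringTie after FastQC, and cutadapt 1.9 is named in the submitters' processing notes. How the deposited estimated counts were derived is not given in the sources used here. The labels name build GRCm38 and the methods name a later Ensembl release. Positions are GRCm38 from GENCODE M21 by gene ID, which held 32542 of 34449 IDs, and promoter letters are from RefSeq.

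Group differences of log2(FPKM + 1) were fitted in limma 3.58.1 (trended variance) over 12802 genes whose mean FPKM reached 1, with Benjamini-Hochberg adjustment over all of them. As alternatives, the estimated counts were tested in edgeR 4.0.16 and DESeq2 1.42.0. Ratios used log2((a + 0.1)/(b + 0.1)) of FPKM and exact permutation tests, adjusted over 4, and correlations of log2(FPKM + 1) used 100000 permutations, adjusted within families of 45, 110 and 8 pairs, of which the last was added after the values were seen. The fits were tested on simulated data. The members, lists and tests were chosen with earlier results of these data known. Beside the members, the genes named were the most abundant gene of each role, the gene of each role with the largest log2 fold change of those that entered limma, and the 3 most similar genes of each of the 3 most variable members. Il1b, the other regulators, Cysltr2, Pla2g4b and Ptgr2 were singled out later.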

Additional observations from a re-analysis of the deposited data

Results flagged for a closer look

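The 50 groups of 5 libraries were 10 members, 11 other named genes and 4 ratios, each in BC@Z-M + L and in control tumors. In these groups 3 libraries stood far enough apart to pass Dixon's criterion (95% level), about as many as the 1 in 20 chance gives. They were BC@Z-M + L replicate 5 for Ptgs1 (log2(FPKM + 1) of 5.55, or 45.7 FPKM), BC@Z-M + L replicate 1 for Ptges2 (2.23, or 3.70 FPKM), and control replicate 2 for Cebpb (7.45, or 173.3 FPKM).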

How the results depend on the processing

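No member and no further listed gene passed under any of the settings tried. These were another pseudocount, looser filters, 3 other scalings, and limma without a trend or with array weights. The others were edgeR, DESeq2, a replicate block (0 calls) and leaving out each library. The block gave Ptges an adjusted p of 0.978 in limma, and the numbers gave correlations of deviations between -0.28 and 0.53, with 1 of 5 libraries correlating best with its own number. Of 234 alternative values for the members, 7 changed sign, in 4 genes. With 1 library left out, the log2 fold change ranged between -0.13 and 0.28 for Ptgs1, -0.27 and 0.19 for Hpgd, -0.00063 and 0.096 for Pla2g4a, -0.22 and 0.12 for Fpr2, -0.0068 and 0.33 for Ltb4r1, and -0.013 and 0.26 for Cebpb. Without BC@Z-M + L replicates 2 and 5 together, an alternative chosen after seeing the data, it was -0.10 for Ptgs1, -0.43 for Ptgs2, -0.10 for Ptgir, -0.18 for Ltb4r1, -0.0339 for Cebpb and -0.12 for Zfp36. Fpr2 was 0.0398 after scaling to TPM and 0.0154 after median-ratio scaling, and with array weights Ltb4r1 was -0.0291 and Zfp36 -0.0116. The difference of the log2 ratio ranged between -0.27 and 0.35 for Ptgs2 to Ptgs1 and between -0.28 and 0.0402 for Ptger4 to Ptger2 with 1 library left out. The causes of these changes were not tested. Counts were lowest for Hpgd (from 36 per library) and Ptger2 (from 47), and what depth alone limits was not tested.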
